A study of Rattus norvegicus with 7 samples.

Results

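The genes that make, store, take back up and break down the monoamines and histamine were examined in hippocampus and hypothalamus of rats fed the omega-3 fatty acid docosahexaenoic acid (DHA). The set holds 9 genes, chosen by symbol: the synthesis enzymes Th, Tph2, Hdc and Ddc, the vesicular transporter Slc18a2, the plasma membrane transporters Slc6a3 and Slc6a4, and the monoamine oxidases Maoa and Maob. All 9 were present in both tissue tables, among 15805 symbols common to them, and each had a single locus in each table. The 7 RNA sequencing libraries came from male Sprague Dawley rats that were 2 months old when the diet began and that received DHA for 6 weeks, and they comprise 4 libraries labelled DHA_hippocampus and 3 labelled DHA_hypothalamus. The chow-fed animals of the study were not analysed here, and what DHA itself does to these genes was not estimated. Values are FPKM, fragments scaled by transcript length and by library size, which can be set side by side between genes within a table. The labels do not say whether replicates or tissues came from the same animals.

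Dopamine, noradrenaline and adrenaline are made from tyrosine, serotonin from tryptophan and histamine from histidine. A hydroxylase specific to each pathway commits tyrosine (tyrosine hydroxylase, Th) or tryptophan (tryptophan hydroxylase, Tph2 in neurons) to its pathway, and Ddc then removes the carboxyl group, while Hdc makes histamine in a single decarboxylation. Histamine neurons of the brain lie in the tuberomammillary nucleus of the posterior hypothalamus, several groups of dopamine neurons lie in the hypothalamus, and serotonin and noradrenaline neurons lie in the brainstem and send axons to both tissues studied here.

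Upstream sequence is shown for the genes called different between the tissues that have 1 promoter entry, so that the members with a like pattern can be read side by side. Of the 9 members, 8 matched the RefSeq promoter table of the rat assembly GRCr8. Each sequence holds the 250 bases before the annotated start, 5′ to 3′ on the strand of the gene, with capitals marking the letters of a cAMP response element (TGACGTCA, which reads the same on both strands and was counted once), a TATA box (TATAAA) or a GC box (GGGCGG) on either strand. No match overlapped another. The regions are chr1:207508219-207508468 on the minus strand for Th, chr3:134318705-134318954 on the minus strand for Hdc, chr1:268399771-268400020 on the plus strand for Slc18a2 and chr7:52675640-52675889 on the minus strand for Tph2.
Th: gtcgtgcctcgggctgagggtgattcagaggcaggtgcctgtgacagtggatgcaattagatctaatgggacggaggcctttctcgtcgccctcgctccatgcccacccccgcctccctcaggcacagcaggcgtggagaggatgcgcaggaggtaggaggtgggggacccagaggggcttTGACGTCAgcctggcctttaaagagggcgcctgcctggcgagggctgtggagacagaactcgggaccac
Hdc: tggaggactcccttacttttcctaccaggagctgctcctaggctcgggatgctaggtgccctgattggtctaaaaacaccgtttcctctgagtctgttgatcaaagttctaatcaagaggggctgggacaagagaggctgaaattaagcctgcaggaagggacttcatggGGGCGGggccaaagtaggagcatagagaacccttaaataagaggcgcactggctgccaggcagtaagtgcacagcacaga
Slc18a2: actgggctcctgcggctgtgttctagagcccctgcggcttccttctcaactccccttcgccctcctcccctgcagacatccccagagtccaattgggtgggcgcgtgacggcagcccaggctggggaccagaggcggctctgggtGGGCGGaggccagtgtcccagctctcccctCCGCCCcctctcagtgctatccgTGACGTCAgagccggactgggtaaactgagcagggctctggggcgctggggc
Tph2: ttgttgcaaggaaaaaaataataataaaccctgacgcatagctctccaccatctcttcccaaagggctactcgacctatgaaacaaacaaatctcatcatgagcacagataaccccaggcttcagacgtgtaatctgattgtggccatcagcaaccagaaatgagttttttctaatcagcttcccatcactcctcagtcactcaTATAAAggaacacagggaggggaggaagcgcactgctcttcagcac

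The cAMP response element occurred in Th, beginning 69 bases before the start, and in Slc18a2, beginning 52 bases before it, and in no entry of the other 6 members with one. Over the 33469 promoter entries of the table, 1.59% held it in this window. Slc18a2 also held 2 GC boxes, beginning 105 and 75 bases before the start, and Hdc held 1, beginning 80 bases before it. GC boxes were present in 30.5% of all entries, and Maoa held 4, Slc6a3 3 and Maob 2. Tph2 held a TATA box that began 46 bases before the start, and 1 of the 3 entries of Ddc held one beginning 68 bases before it, a match found in 12.9% of all entries. These matches describe the letters in the window and were searched with the tissue differences known.

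Before the members are described, the libraries were checked. Deposited FPKM summed to between 370020 and 391349 in hippocampus and to between 443335 and 471484 in hypothalamus, and sequencing depth is unknown. Replicate 1 of each tissue stood apart: across loci of at least 1 FPKM, its Pearson r with the other libraries of its tissue was 0.827 to 0.890 in hippocampus and 0.897 to 0.905 in hypothalamus, against at least 0.944 and 0.971 for the pairs without it (across genes, which are not independent replicates). All 11 listed hypothalamus markers, and all 5 of the hippocampus markers shared by the tables, lay above the other tissue in each library of the tissue they mark. Of the 10736 symbols compared below, 24.4% lay so towards hypothalamus and 28.2% towards hippocampus. Genes of neighbouring tissue varied between libraries. Choroid plexus genes summed to 35.5 FPKM in hippocampus replicate 2 and to between 2071 and 5951 FPKM in the other hippocampus libraries. Meninges genes were highest in hippocampus replicate 3 (141 FPKM summed, 26.9 to 65.9 in the others) and in hypothalamus replicate 2 (183 FPKM, 37.0 and 97.7 in the others).

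To set the tissues side by side, libraries were brought to a common sum of 1000000 over the shared symbols. A gene that averaged 1 FPKM or more in either tissue was called higher in one of them if its libraries did not overlap with those of the other and the mean differed by at least 1 in log2(rescaled FPKM + 1), a 2-fold difference on that scale, which understates differences of low genes. The tissues come from separate tables with no stated common normalization, so tissue and table cannot be told apart and no test was made between them. Of the 9 members, 7 reached 1 FPKM in a tissue. Of these 7, 4 were called higher in hypothalamus (Hdc, Th, Slc18a2 and Ddc), where 13.4% of all 10736 compared symbols were, and 1 was called higher in hippocampus (Tph2), where 14.5% were. Maoa and Maob were not called. Slc6a3 and Slc6a4 did not reach it. The median difference over all 9 members was 1.30, and that over all compared symbols was −0.05. In bulk tissue, fewer cells of a type and less RNA per cell cannot be told apart.

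**Figure D1:**
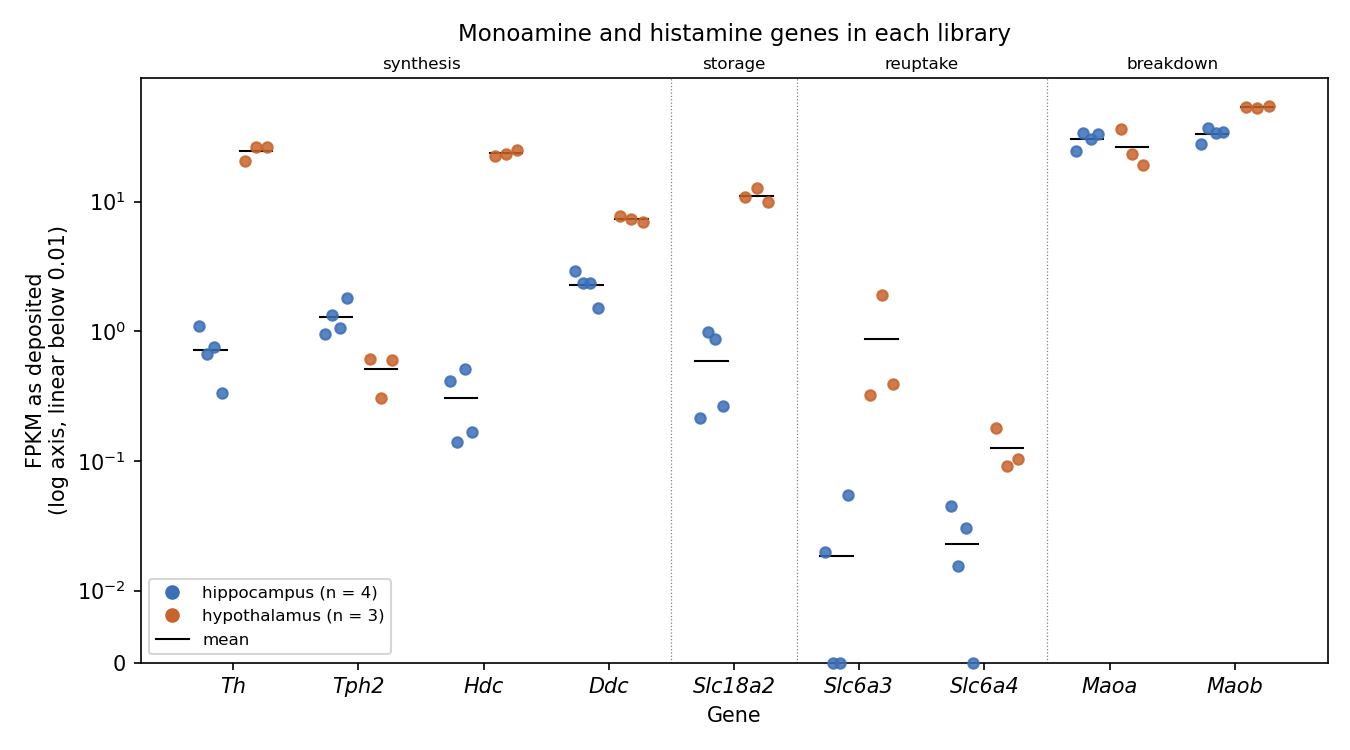
FPKM as deposited (y axis, logarithmic and linear below 0.01) of each of the 9 genes (x axis, ordered by role) in the 4 hippocampus and 3 hypothalamus libraries, with bars at the means. Th, Hdc, Ddc, Slc18a2, Slc6a3, Slc6a4 and Maob lie higher in every hypothalamus library, Tph2 lies higher in every hippocampus library, and Maoa overlaps.

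Hdc, which makes histamine, showed the largest tissue difference of the 9 genes. It read 22.6, 23.2 and 25.0 FPKM in hypothalamus replicates 1 to 3 and 0.413, 0.141, 0.511 and 0.167 FPKM in hippocampus replicates 1 to 4. The lowest hypothalamus library was far above the highest hippocampus library. The difference was 4.94 ± 0.21 in log2(rescaled FPKM + 1) (standard error, n = 3 and 4), and the rescaled means differed 61.9-fold. Only 29 of the 10736 compared symbols had a larger difference towards hypothalamus. Hdc was also among the steadiest genes across the hypothalamus libraries, with a coefficient of variation of 5.30%, lower than that of all but 6.09% of symbols of at least 1 FPKM. Mast cells also express Hdc. Of 8 mast cell marker genes, 7 were under 1 FPKM in every library of both tissues, the exception being Hpgds at up to 1.28 FPKM, and the summed level of the 8 was 0.756 to 1.44 FPKM in hippocampus and 0.984 to 1.86 FPKM in hypothalamus. Mcpt2 was listed at 0 in hippocampus, and Cma1 and Fcer1a were listed at 0 in hypothalamus. Hdc itself was under 1 FPKM in every hippocampus library, and the part of mast cells in the Hdc values was not tested.

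Th, which encodes the rate-limiting enzyme of catecholamine synthesis, read 20.4, 26.3 and 26.4 FPKM in hypothalamus and 1.10, 0.672, 0.761 and 0.332 FPKM in hippocampus. The groups did not overlap. The difference was 4.28 ± 0.25 (standard error), with rescaled means 27.5-fold apart, and 46 compared symbols had a larger difference towards hypothalamus. Within hypothalamus, Th and Hdc were at the same level: the Th to Hdc ratio was 0.902, 1.14 and 1.05 in replicates 1 to 3. The enzymes that carry dopamine on to noradrenaline and adrenaline were hardly detected, with Dbh at no more than 0.164 FPKM and Pnmt at no more than 0.223 FPKM in any of the 7 libraries.

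Ddc, the decarboxylase shared by the dopamine and serotonin pathways, differed less. It read 7.75, 7.40 and 6.96 FPKM in hypothalamus and 2.89, 2.36, 2.37 and 1.50 FPKM in hippocampus, again without overlap. The difference was 1.30 ± 0.19 (standard error), a 2.63-fold difference of rescaled means. Its order relative to Th was therefore opposite in the tissues: the Th to Ddc ratio within a library was 2.63 to 3.79 in hypothalamus and 0.222 to 0.381 in hippocampus. A ratio of genes in the same library does not depend on how libraries are scaled. In the RefSeq table Ddc overlaps Fignl1 and a long non-coding RNA gene, Slc6a3 and Slc6a4 each overlap 1 long non-coding RNA gene and Tph2 overlaps a pseudogene, and whether fragments were assigned by strand is not given in the sources used here. Fignl1 itself read no more than 0.263 FPKM in any library.

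Tph2, the neuronal tryptophan hydroxylase, went the other way. It read 0.949, 1.33, 1.06 and 1.80 FPKM in hippocampus and 0.614, 0.305 and 0.602 FPKM in hypothalamus. All 4 hippocampus libraries were above all 3 hypothalamus libraries, and the difference was −1.10 ± 0.22 (standard error, hypothalamus minus hippocampus). The size of this difference depended on the scaling. With FPKM as deposited it was −0.59, which is under the 2-fold limit, although the groups still did not overlap. On that scale 8.64% of symbols were called higher in hippocampus and 16.9% higher in hypothalamus. The call was also lost without hippocampus replicate 4, the library with the highest Tph2 value, and without hypothalamus replicate 2, the library with the lowest, at differences of −0.95 and −0.94. Of other genes that serotonin neurons express, Slc6a4 read at most 0.0449 FPKM in hippocampus and 0.0909 to 0.181 FPKM in hypothalamus. Among transcription factor genes of these neurons, Gata2 read 0.945 to 1.50 and 1.43 to 2.60 FPKM in hippocampus and hypothalamus, Gata3 at most 0.112 and 0.463 to 0.739 FPKM, and Fev 0 and at most 0.0647 FPKM. None of these 4 genes had the order of Tph2. Gata2 overlapped between the tissues, Slc6a4 and Fev were near 0, and the part of serotonin neurons in the Tph2 values was not tested. The other tryptophan hydroxylase gene, Tph1, read no more than 0.162 FPKM in any library.

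Slc18a2, the vesicular monoamine transporter of neurons (VMAT2), loads dopamine, serotonin, noradrenaline and histamine into vesicles. It read 10.7, 12.7 and 9.88 FPKM in hypothalamus and 0.216, 0.985, 0.876 and 0.265 FPKM in hippocampus. The hypothalamus libraries were all above the hippocampus libraries, by 3.43 ± 0.35 (standard error) and 15.5-fold in rescaled means. The hippocampus values fell into a higher pair, replicates 2 and 3, and a lower pair, replicates 1 and 4. Its relative Slc18a1 (VMAT1), known from endocrine cells, had the opposite order. Slc18a1 read 4.06, 2.63, 3.25 and 4.16 FPKM in hippocampus and 0.537, 0.665 and 0.564 FPKM in hypothalamus. It was called higher in hippocampus, with a difference of −2.21 ± 0.16 (standard error), so that Slc18a1 exceeded Slc18a2 in every hippocampus library and Slc18a2 exceeded Slc18a1 in every hypothalamus library.

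Reuptake transporters were low in both tissues, and neither averaged 1 FPKM, so no call was made for them at that limit. Slc6a3, the dopamine transporter, read 0.321, 1.90 and 0.391 FPKM in hypothalamus and was listed at 0 in hippocampus replicates 2 and 3, with 0.0199 and 0.0543 FPKM in replicates 1 and 4. Hypothalamus replicate 2 was far above the others, and the group averaged 0.871 ± 0.89 FPKM (SD, n = 3). Without replicate 1 or without replicate 3 of hypothalamus the mean passed 1 FPKM and Slc6a3 was called higher there, and without replicate 2 the mean was 0.356 FPKM and the difference went from 1.33 to 0.79. With all libraries but no lower limit on FPKM it was also called higher in hypothalamus. The size of its difference depended on the constant added before the logarithm, at 3.48 with 0.1 and 0.44 with 5, and was 0.78 with FPKM as deposited. Replicate 2 also had the highest summed level of meninges genes and of anterior pituitary genes (325 FPKM, against 102 and 225 FPKM in replicates 1 and 3), and their part in the Slc6a3 value was not tested. Th exceeded Slc6a3 by 13.8 to 67.4 times within the hypothalamus libraries. Slc6a4, the serotonin transporter, read 0.181, 0.0909 and 0.103 FPKM in hypothalamus and 0.0449, 0.0155, 0.0306 and 0 FPKM in hippocampus. For both transporters the hypothalamus libraries lay above all hippocampus libraries, as for 24.4% of all compared symbols, a set that both were too low to join. The noradrenaline transporter gene Slc6a2 read at most 0.147 FPKM in any library.

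The monoamine oxidases, which break down the amines at the outer mitochondrial membrane, were the most abundant of the 9 genes in hippocampus, and Maob was the most abundant in hypothalamus. Maoa, which prefers serotonin and noradrenaline, read 24.5, 33.9, 30.6 and 33.2 FPKM in hippocampus and 36.0, 23.3 and 19.1 FPKM in hypothalamus. The groups overlapped, with hypothalamus replicate 1 above every hippocampus library in FPKM as deposited. After rescaling, hypothalamus replicate 1 was above hippocampus replicate 1 alone, and with the one or the other of these libraries left out, every hippocampus library was above every hypothalamus library, but Maoa was still not called. Maob, which prefers phenylethylamine and in the rodent brain is found in astrocytes and in histamine and serotonin neurons, read 28.0, 36.7, 34.0 and 34.3 FPKM in hippocampus and 53.8, 52.9 and 54.7 FPKM in hypothalamus. Every hypothalamus library was higher, as for 24.4% of all compared symbols, but the difference of 0.40 ± 0.08 (standard error) was under the limit for a call, with rescaled means 1.32-fold apart. With FPKM as deposited the difference was 0.68, also under the limit. The coefficient of variation of Maob in hypothalamus was 1.71%, and 0.756% of symbols of at least 1 FPKM varied less.

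Maob and Maoa lie next to each other on chromosome X in the RefSeq table. Their ratio within a library was 1.14, 1.08, 1.11 and 1.03 in hippocampus replicates 1 to 4, averaging 1.09 ± 0.05 (SD, n = 4), and 1.49, 2.27 and 2.87 in hypothalamus replicates 1 to 3, a mean of 2.21 ± 0.69 (SD, n = 3). The ranges did not overlap, and in hypothalamus Maoa had a coefficient of variation of 33.8%, against the 1.71% of Maob. The mean ratio there was 2.57 without hypothalamus replicate 1, 2.18 without replicate 2 and 1.88 without replicate 3. This was 1 of 10 ratios between members that were computed. Astrocyte genes are relevant beside Maob: of 6 found in both tables, 2 were called higher in hypothalamus (Aqp4 and Aldh1l1), as were 13.4% of all compared symbols, and 4 overlapped, and their summed level was 1339 to 1912 FPKM in hippocampus and 1879 to 2583 FPKM in hypothalamus. Their part in the Maob level was not tested.

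**Figure D2:**
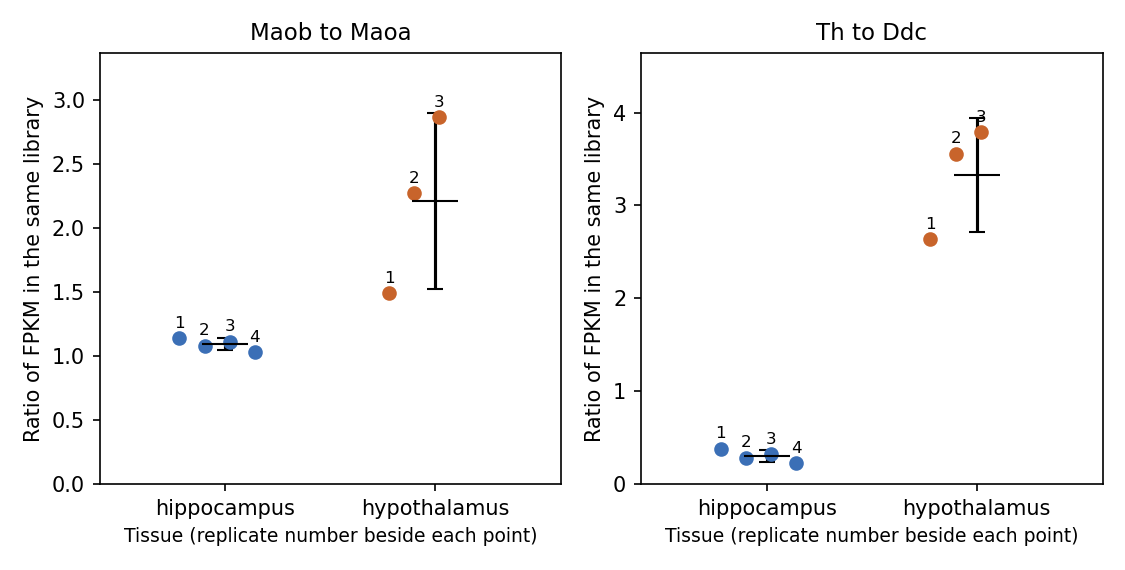
Ratio of FPKM in the same library (y axis) for Maob to Maoa (left) and Th to Ddc (right) in hippocampus and hypothalamus (x axis), with the replicate number at each point and the mean ± SD as black bars. The Maob to Maoa ratio is 1.03 to 1.14 in hippocampus and 1.49 to 2.87 in hypothalamus, and the Th to Ddc ratio is below 1 in every hippocampus library and above 1 in every hypothalamus library.

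The order of levels also differed between the tissues. In hypothalamus the means ran Maob, Maoa, Th, Hdc, Slc18a2, Ddc, Slc6a3, Tph2 and Slc6a4, from 53.8 ± 0.92 down to 0.125 ± 0.049 FPKM (SD, n = 3). Maoa overlapped Th, Th overlapped Hdc and Slc6a3 overlapped Tph2, while the other neighbours in this order did not overlap. Without hypothalamus replicate 1 the mean of Maoa was below those of Th and Hdc. Without hypothalamus replicate 2 the mean of Th was below that of Hdc and the mean of Slc6a3 below that of Tph2. In hippocampus the order was Maob, Maoa, Ddc, Tph2, Th, Slc18a2, Hdc, Slc6a4 and Slc6a3, from 33.2 ± 3.68 down to 0.0185 ± 0.026 FPKM (SD, n = 4). The oxidases formed a pair far above the rest, Ddc, Tph2, Th and Slc18a2 each overlapped the next gene in the order, and the transporters Slc6a4 and Slc6a3 lay below all of them. These transporters overlapped each other, and their order was reversed without hippocampus replicate 1 or replicate 3. Without replicate 4 the Slc6a3 mean was 0.00664 FPKM. Maob exceeded Maoa in all 4 hippocampus libraries, although their ranges overlapped.

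The hydroxylases Th and Tph2 need the cofactor tetrahydrobiopterin, and the genes that make and recycle it were compared in the same way. Gch1, which encodes the rate-limiting enzyme GTP cyclohydrolase, read 2.81, 4.52 and 4.09 FPKM in hypothalamus and 0.422, 0.427, 0.662 and 0.369 FPKM in hippocampus. Gchfr, the feedback regulator of that enzyme, read 8.81 ± 1.30 FPKM (SD, n = 3) against 1.08 ± 0.23 FPKM (SD, n = 4). Spr, the enzyme of the last step, read 7.48, 12.9 and 18.2 FPKM in hypothalamus and 2.13 to 4.47 FPKM in hippocampus. These 3 genes were called higher in hypothalamus. Pcbd1, which acts in cofactor recycling and also as a partner of a transcription factor, had the largest difference of the group, at 94.9, 95.5 and 140 FPKM against 4.28 to 7.62 FPKM, or 3.75 ± 0.24 on the log2 scale (standard error). Pts, the enzyme of the middle step, and Qdpr, which regenerates the cofactor, overlapped between the tissues. Qdpr was by far the most abundant of the 6, at 212 ± 22 FPKM in hypothalamus and 218 ± 59 FPKM in hippocampus (SD).

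**Figure D3:**
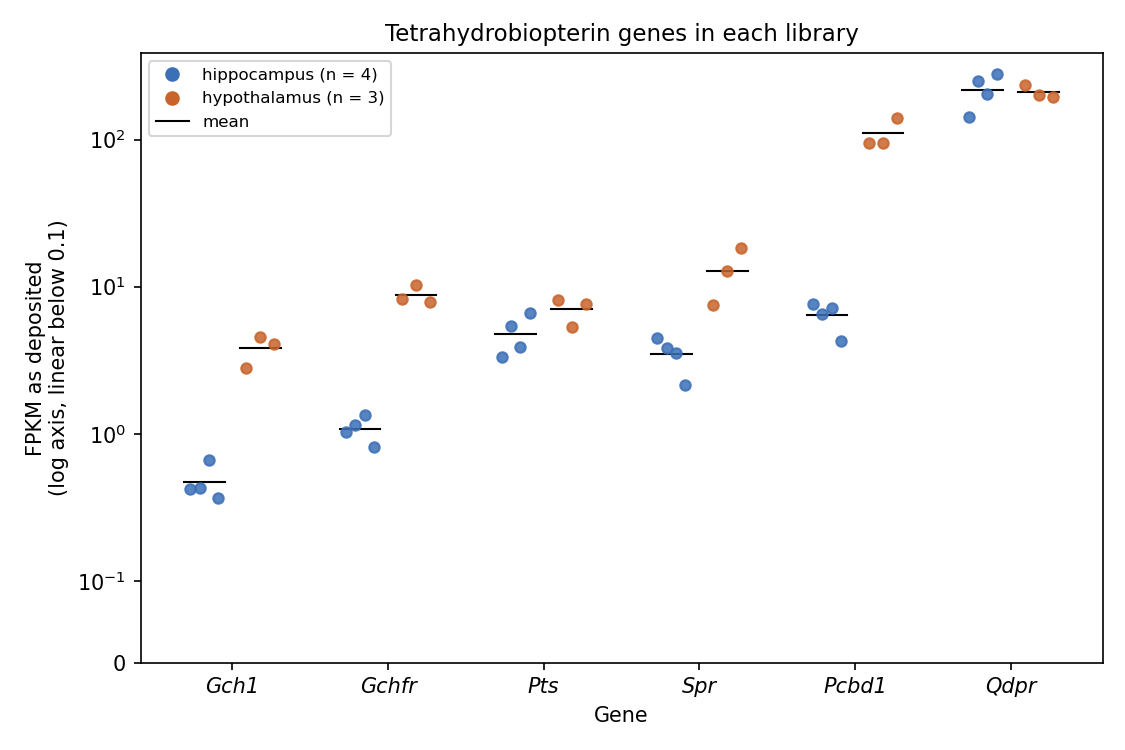
FPKM as deposited (y axis, logarithmic and linear below 0.1) of 6 tetrahydrobiopterin genes (x axis) in the 4 hippocampus and 3 hypothalamus libraries, with bars at the means. Gch1, Gchfr, Spr and Pcbd1 lie higher in every hypothalamus library, and Pts and Qdpr overlap.

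Over the fixed list of other synthesis, cofactor and storage genes, 12 of 13 were found in both tables and 8 reached 1 FPKM in a tissue. Of these 8, 4 were called higher in hypothalamus, 1 (Slc18a1) higher in hippocampus and 3 neither, where 13.4% and 14.5% of all compared symbols were called in these directions. The median difference over the 12 was 0.33. The remaining gene not called was Asmt, which makes melatonin in the pineal gland. It read 0.799, 1.62 and 2.22 FPKM in hypothalamus and 0.259 to 0.625 FPKM in hippocampus. Asmt was called higher in hypothalamus with 0.1 added before the logarithm and without hypothalamus replicate 1, with or without hippocampus replicate 1. Aanat, which acts just before it, read at most 0.374 FPKM in any library.

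Other transport and breakdown genes were compared next. Of 11 listed, 9 reached 1 FPKM, and 2 of these were called higher in hypothalamus and none higher in hippocampus (13.4% and 14.5% of all compared symbols), with a median difference of 0.45 over the 11. Slc29a4, a low-affinity monoamine transporter (PMAT), read 16.9, 20.5 and 28.6 FPKM in hypothalamus and 6.16 to 9.93 FPKM in hippocampus. Its difference of 1.11 ± 0.26 (standard error) was near the limit. It was not called with 5 added before the logarithm, without hippocampus replicate 4 or without hypothalamus replicate 3. Slc22a3, another low-affinity transporter, read 1.88, 1.15 and 1.28 FPKM against 0.140 to 0.294 FPKM. It was not called with FPKM as deposited, where its difference was 0.97, with a common median or with 5 added before the logarithm. It was too low for a filter at 5 FPKM. Hnmt, which inactivates histamine in the brain, averaged 8.49 ± 2.73 FPKM (SD, n = 3) in hypothalamus and 4.98 ± 1.60 FPKM (SD, n = 4) in hippocampus, with overlap. The other histamine-degrading enzyme gene, Aoc1, read at most 0.0843 FPKM in any library.

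Slc22a2, an organic cation transporter gene, moved with the meninges genes. It read 0, 0, 4.84 and 0.0530 FPKM in hippocampus replicates 1 to 4 and 1.91, 12.8 and 0.515 FPKM in hypothalamus replicates 1 to 3. The highest library of each tissue was the library with the highest summed meninges level, hippocampus replicate 3 and hypothalamus replicate 2. The part of meninges in these values was not tested. Without hippocampus replicate 3, Slc22a2 was called higher in hypothalamus.

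Receptors for dopamine and histamine were examined last. Of 9 listed, 6 reached 1 FPKM, 1 was called higher in hypothalamus and none higher in hippocampus (again beside 13.4% and 14.5% of all compared symbols), and the median difference over the 9 was −0.02. Drd2, which also serves as the autoreceptor of dopamine neurons, was the called gene, at 4.60, 5.59 and 6.53 FPKM in hypothalamus and 1.33, 0.581, 0.811 and 0.771 FPKM in hippocampus, a difference of 2.02 ± 0.22 (standard error). Pituitary cells express Drd2 as well, and of 7 anterior pituitary genes, 4 reached 1 FPKM and all 4 were called higher in hypothalamus (13.4% of all compared symbols), led by Cga at 178 ± 106 FPKM (SD, n = 3), while Prl was listed at 0 in all 7 libraries and Gh1 averaged 0.0992 FPKM in hypothalamus. Their part in the Drd2 level was not tested. Drd1 and Drd5, the receptors that raise cAMP, were higher in every hippocampus library, as were 28.2% of all compared symbols. Drd1 read 4.15, 4.16, 3.78 and 5.28 FPKM in hippocampus against 2.42, 2.46 and 2.49 FPKM in hypothalamus, a difference of −0.99 ± 0.09 (standard error) that missed the limit narrowly. It was called higher in hippocampus without hippocampus replicate 1, 2 or 3 and without hypothalamus replicate 2. Drd5 read 1.55 to 1.75 FPKM against 0.661 to 1.13 FPKM, a difference of −0.91 ± 0.15, and it was called higher in hippocampus without hypothalamus replicate 1. With FPKM as deposited the differences were −0.62 for Drd1 and −0.49 for Drd5, and neither was called.

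Hrh3, the histamine receptor that acts as an autoreceptor on histamine neurons and as a presynaptic receptor on others, was the most abundant receptor gene in both tissues. It read 26.5, 36.2 and 49.2 FPKM in hypothalamus and 29.2, 15.7, 14.1 and 13.5 FPKM in hippocampus. Only hippocampus replicate 1 reached into the hypothalamus range, and without that library Hrh3 was called higher in hypothalamus. Hrh1 overlapped between the tissues, at 3.85 to 7.16 and 3.53 to 4.98 FPKM in hypothalamus and hippocampus. Hrh2 read 3.75, 2.04, 1.20 and 0.314 FPKM in hippocampus, a wide spread, and 0.575 to 1.14 FPKM in hypothalamus. It has 2 loci in the hippocampus table, and it was called higher in hippocampus with its loci summed or without hippocampus replicate 4. Hrh4 was listed at 0 in all 7 libraries.

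**Figure D4:**
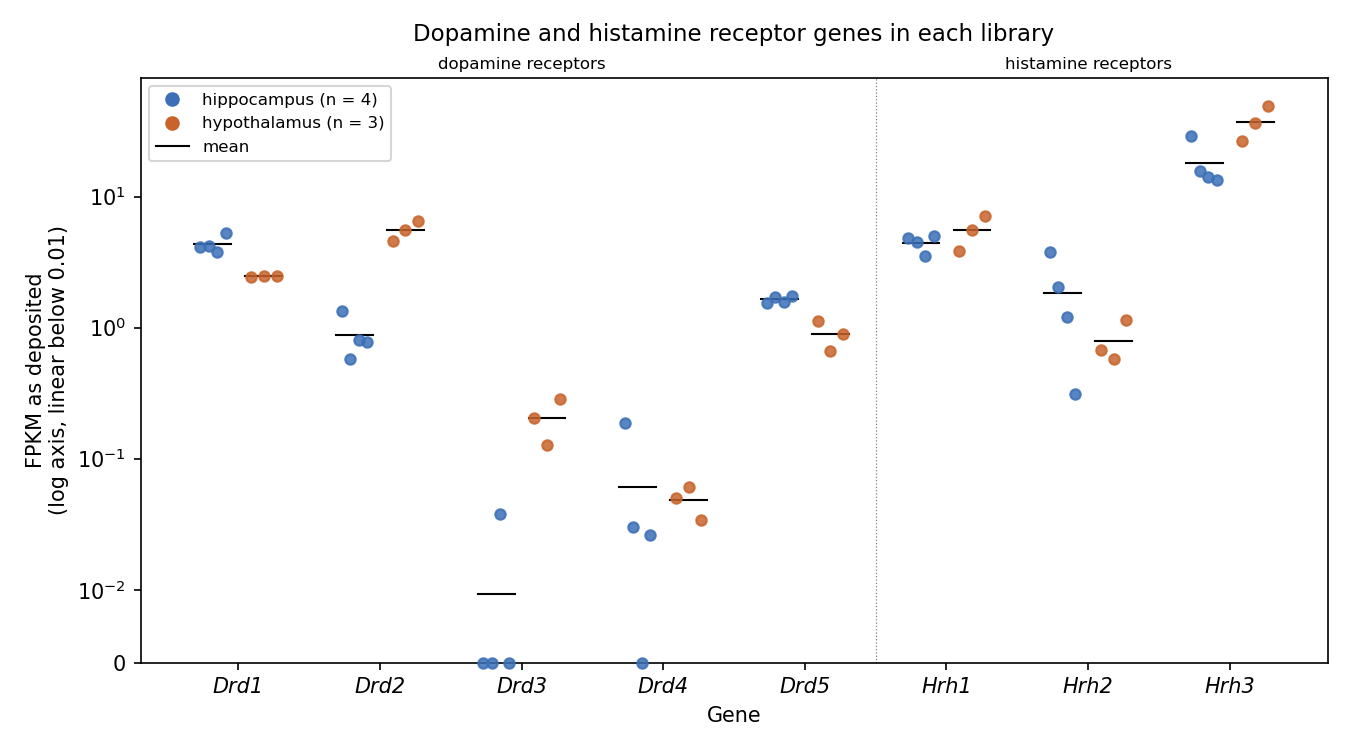
FPKM as deposited (y axis, logarithmic and linear below 0.01) of dopamine and histamine receptor genes (x axis) in the 4 hippocampus and 3 hypothalamus libraries, with bars at the means. Drd2 and Drd3 lie higher in every hypothalamus library, Drd1 and Drd5 lie higher in every hippocampus library, and Hrh4, listed at 0 throughout, is not drawn.

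Over the 3 fixed lists together, 23 of 33 genes reached 1 FPKM, and 7 were called higher in hypothalamus and 1 in hippocampus, beside 13.4% and 14.5% of all compared symbols. Hdc, Th, Slc18a2 and Pcbd1 were the genes furthest towards hypothalamus among the members and these lists, and Slc18a1 was furthest towards hippocampus, as the plot of tissue differences shows.

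**Figure D5:**
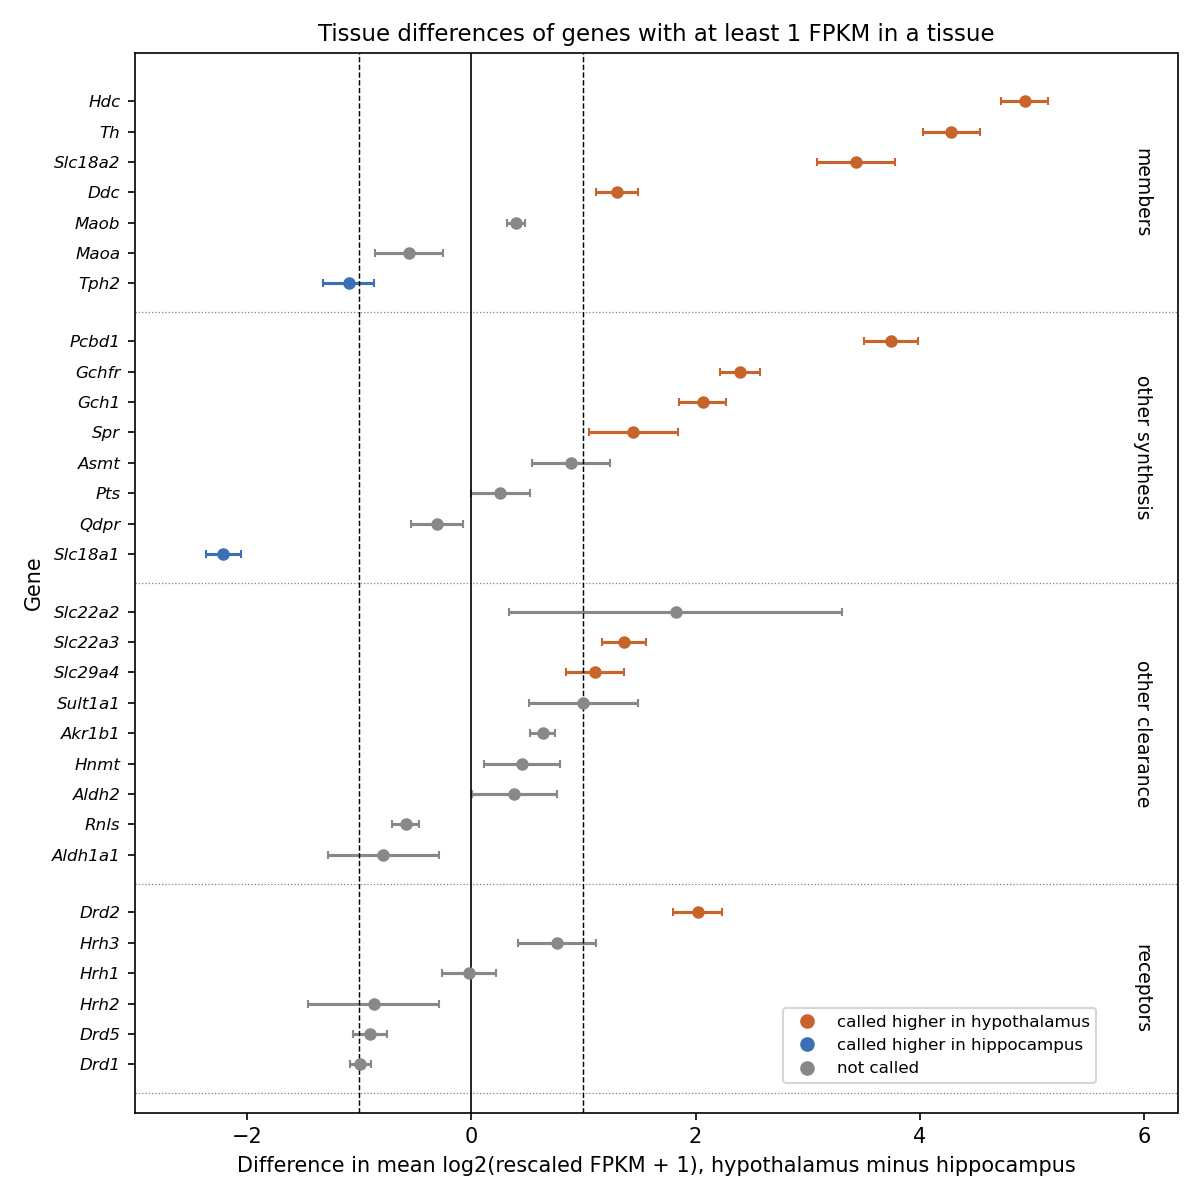
Difference in mean log2(rescaled FPKM + 1), hypothalamus minus hippocampus (x axis), for the members and the genes of 3 pathway lists with at least 1 FPKM in a tissue (y axis), with bars at ± 1 standard error and dashed lines at the limit of 1 in each direction. Among the members, Hdc (4.94), Th (4.28), Slc18a2 (3.43) and Ddc (1.30) are called higher in hypothalamus and Tph2 (−1.10) higher in hippocampus.

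For the 3 members with the largest difference, the symbols with the most similar pattern over the 7 libraries were sought among 8469 symbols of at least 5 FPKM in a tissue, by Pearson r of log2(rescaled FPKM + 1). Psenen, Ubac2 and Calcr were closest to Hdc (r = 0.998 for each), Park7, LOC100188932 and Pet100 to Th (r = 0.999 for each), and Trim26, Mak16 and Mrpl49 to Slc18a2 (r = 0.993, 0.992 and 0.992). These values are a description over 7 points that share tissue, table and scaling. Pearson r does not measure the size of a difference. In the order named, the differences were 2.19, 2.90 and 5.85 beside Hdc (4.94) and 1.81, 3.28 and 3.13 beside Th (4.28). Beside Slc18a2 (3.43) they were 0.56, 0.60 and 2.42, so that Trim26 and Mak16 were under the limit for a call. An r of at least 0.99 was reached by 88 symbols with Hdc, by 98 with Th and by 4 with Slc18a2. Of the 9 genes named, Calcr, the calcitonin receptor gene, had the level most like that of Hdc in hippocampus, at 0.383 ± 0.28 FPKM (SD, n = 4), and read 49.1 ± 7.1 FPKM in hypothalamus (SD, n = 3).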

How the data were processed

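RNA of 4 hippocampus and 3 hypothalamus libraries had been selected for poly-A, fragmented and reverse transcribed with random primers, per the labels' protocols. The deposited values are FPKM, computed by the authors as 1 table per tissue. Per the submitters' processing notes, TopHat, TopHat2, Bowtie, Bowtie2, Cufflinks and Cuffdiff and the build rn5 were used; annotation, strand setting and library scaling are not given in the sources used here.

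Loci whose status word was not OK throughout a table were dropped (86 in hippocampus, 24 in hypothalamus), and a symbol with several loci was represented by the one with the highest mean. Replicates were averaged as labelled; where nothing says that they are separate animals, their spread may be technical. Symbols were matched to RefSeq (GRCr8) names for 15719 of 16153 and 15732 of 16163 symbols. The call rule was tested on simulated data. No p-value was computed, since the only comparison lies between separately made tables. Some genes of the pathway are not reported here and were left out of the lists. Named genes are the members, the fixed lists and the 3 symbols most like each of 3 members. The members, lists and motifs were chosen with earlier results of these data known. Python 3.11.15, numpy 2.4.6 and pandas 2.3.3 were used. FPKM carries no counts, so no counting interval was given. Alternatives were pseudocounts of 0.1 and 5 in place of 1, other scalings, other filters on low values, summed loci and left-out libraries.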

Additional observations from a re-analysis of the deposited data

Results flagged for a closer look

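In the 4 hippocampus libraries, a library was taken to stand apart when its gap to the nearest other, divided by the whole range, exceeded Dixon's critical value for 4 samples. Levels and sums were taken as log2(FPKM + 1) and ratios between genes as they stand. Of 68 results with any range, 7 did, where chance gives about 1 in 20 (3.4), and genes of 1 list are not independent. No level of a member was among them.

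Of the 7, 4 rest on genes with 1 library above 0 and the others at 0: Slc6a2 and Drd3 in replicate 3 and Foxa1 and Phox2a in replicate 1, each with a ratio of 1.0. Their single values were at most 0.0509 FPKM. Slc22a2 was highest in replicate 3, with a ratio of 0.971 (0.989 in FPKM), at 4.84 FPKM. The Th to Slc18a2 ratio was highest in replicate 1, with a ratio of gap to range of 0.871: it was 5.11 there and 0.682 to 1.25 in the others. On a log2 scale this value was 0.697, under the critical value. The summed FPKM of the hypothalamus marker list was lowest in replicate 3, with a ratio of 0.834, at 9.86 FPKM against 13.9 to 14.9 FPKM. In FPKM this value was 0.806, also under the critical value.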

How the results depend on the processing

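Calls and tissue differences were recomputed under 16 alternatives, all planned, and mean levels and the Maob to Maoa ratio under those that sum loci or leave out libraries; other ratios, correlations and coefficients of variation were not recomputed. Th, Hdc and Slc18a2 were called higher in hypothalamus in all 16 and Ddc in 15, the exception being a pseudocount of 5 (0.95); Maoa and Maob were called in none. No called difference of a member changed sign, but the sizes moved: over the alternatives the difference ran from 3.36 to 5.98 for Hdc, 3.13 to 4.82 for Th, 2.23 to 4.13 for Slc18a2, 0.95 to 1.42 for Ddc and −1.58 to −0.49 for Tph2, the ends being pseudocounts of 5 and 0.1. With FPKM as deposited they were 4.24, 3.89, 2.96, 1.37 and −0.59, and with a common median 3.78, 3.50, 2.57, 1.14 and −0.54. All 4 hippocampus libraries (or those kept) were above the hypothalamus libraries for Tph2 under every alternative, but the number of members called higher in hippocampus went from 1 to 0 with a pseudocount of 5, FPKM as deposited, a common upper quartile, a common median and a filter at 5 FPKM; leaving out each library gave 0 to 1. Slc6a3 was called higher in hypothalamus without a filter, and also without hypothalamus replicate 1 or 3 or replicate 1 of both tissues, where its mean passed 1 FPKM; its difference ran from 0.44 to 3.48 (pseudocounts of 5 and 0.1) and that of Slc6a4 from 0.06 to 1.27. Other pathway genes called higher in hypothalamus were 7 in the main setting and 5 to 9 over the alternatives. Those called higher in hippocampus went from 1 to 3 with a pseudocount of 0.1 and without replicate 1 of both tissues. They went to 2 with loci summed and to 0 with a filter at 5 FPKM, and leaving out each library gave 1 to 3. Over all symbols, FPKM as deposited gave 928 higher in hippocampus in place of 1560 and 1819 higher in hypothalamus in place of 1439, so that the hippocampal share of calls went from 52.0% to 33.8% and the median difference from −0.05 to 0.21. The difference of Maoa ran from −0.92 without replicate 1 of both tissues, when every hippocampus library was above every hypothalamus library, to −0.26 with FPKM as deposited, and that of Maob from 0.31 to 0.68 under the same alternatives. The causes of these changes were not tested. No paired analysis was possible because the result comes from no test and the labels do not tie equal replicate numbers of the 2 tissues to 1 animal. Depth is unknown, so values near 0 (Slc6a3, Slc6a4, Fev) have no stated precision.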

Other observations

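Transcription factor genes that mark monoamine neurons elsewhere in the brain were mostly under 1 FPKM. Of 13 listed, 10 were found in both tables, and 7 of these were under 1 FPKM in every library of each tissue, the others being Nr4a2, Lmx1a and Gata2. Nr4a2, which midbrain dopamine neurons need, read 29.7, 13.1, 15.2 and 25.4 FPKM in hippocampus and 2.75, 4.54 and 4.48 FPKM in hypothalamus. It was called higher in hippocampus, 1 of 3 listed genes that were compared, beside 14.5% of all compared symbols. Foxa1 read 0.587, 0.891 and 0.969 FPKM in hypothalamus and was listed at 0 in 3 of the 4 hippocampus libraries. Gata3 read 0.463, 0.739 and 0.500 FPKM in hypothalamus and at most 0.112 FPKM in hippocampus. Pitx3, a marker of midbrain dopamine neurons, read at most 0.202 FPKM in any library, and Fev at most 0.0647 FPKM.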
